A study of Mus musculus with 4 samples.

Results

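The cells described here are 116 barcodes of mouse colon tumours that carried Cd209a, the mouse homolog of the lectin DC-SIGN, together with MHC class II, and that lacked the defining genes of other dendritic cells, T cells and macrophages. A barcode was a member when it held at least 2 unique molecular identifiers (UMIs, counted RNA molecules) of Cd209a and at least 10 of H2-Ab1, none of Xcr1, Clec9a, Siglech or Cd3e, at most 1 of Fscn1, and less than 0.05% of its UMIs from C1qa, C1qb and C1qc. The rule was applied to the 14198 barcodes that had at least 500 UMIs, at least 200 genes and at most 20% mitochondrial UMIs, of 18026 deposited. The 116 Cd209a-positive cells made up 0.817% of the passing barcodes (exact 95% binomial interval 0.676 to 0.979%).

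The tumours were polyps that arose in the colon of female C57BL/6 mice after azoxymethane, a carcinogen given at 12.5 mg/kg, and 3 cycles of dextran sulphate sodium, an irritant of the gut lining given for 5 days per cycle at 2.5, 2.5 and 2%. Mice were killed 30 days after the last cycle, and digested polyps were stained for CD45 and EPCAM and sorted; per the labels' protocols the sorted CD45+ and CD45- suspensions shared 1 well for capture, while every library had its own index. The 4 labelled libraries were CD45+ cells of EgfrΔMYL mice, which lack Egfr in the myeloid lineage, CD45+ cells of Egfr fl/fl mice, and the CD45- cells of the same EgfrΔMYL and Egfr fl/fl genotypes, with 1 library each and the same tumour protocol in all. The Cre driver of the deletion, the age of the mice and the number of animals per library are not given in the sources used here.

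The counts came as 1 matrix in which each barcode ended in a suffix from 1 to 4, and no source ties a suffix to a genotype or a sort. The matrix was therefore treated as 1 sample, no genotypes were compared, no test was run, and every interval below covers counting error only. Suffix 3 held 30 Cd209a-positive cells of 4516 passing barcodes (0.664%, 0.449 to 0.947%) and suffix 4 held 86 of 7382 (1.165%, 0.933 to 1.44%). Suffixes 1 and 2 held 0 of 594 and 0 of 1706, which allows shares of up to 0.505% and 0.176%. Among the 11238 passing barcodes with at least 1 UMI of Ptprc, the CD45 gene, the share was 1.023%, and 115 of the 116 cells had one. Ptprc was found in 4137 of the 4516 passing barcodes of suffix 3 and 6730 of the 7382 of suffix 4. In suffixes 1 and 2 it was found in 109 of 594 and 262 of 1706. The suffixes thus differed in this gene of the sort, although no label names the sort of a suffix.

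The Cd209a-positive cells held 1518928 UMIs in all, with a median of 12174 per cell (2672 to 30852), 2848 genes and 1.857% mitochondrial UMIs. The 14082 other passing barcodes had medians of 4896 UMIs, 1621 genes and 2.5% mitochondrial UMIs. Levels are given as CPM, a gene's share of the summed UMIs of a population, where 1% is 10000 CPM; this takes the difference in depth out of the level but not out of the share of cells with a UMI. No barcode sequence of a Cd209a-positive cell recurred under another suffix, whereas 14 of 14184 distinct sequences among passing barcodes did.

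Type 2 conventional dendritic cells are mononuclear phagocytes that take up antigen in tissue, load it on MHC class II and prime CD4 T cells. They grow from blood-borne precursors under the cytokine FLT3 ligand, depend in large part on the transcription factor IRF4, and share the surface proteins SIRPα and CD11b with monocytes and macrophages, from which ZBTB46 and FLT3 help to separate them. In the gut they live in the lamina propria beside XCR1-positive type 1 dendritic cells, and both types turn on FSCN1 and CCR7 when they mature and leave for the lymph nodes.

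Cd209a lies on the minus strand of chromosome 8 at 3743397 to 3748984 (GRCm38), in a cluster with Cd209e (3847965 to 3854309), Cd209d (3871824 to 3878555), Cd209b (3917655 to 3926844) and Cd209c (3940222 to 3954746). The promoter window of Cd209a is shown because the rule chose the cells by this gene, which was therefore left out of the rankings. That of Cd209d is shown because this lectin gene ranked among the highest ratios to all other passing barcodes. Those of H2-Aa and H2-Eb1 are shown because they stand for the class II genes of the same cells. Each window runs from 250 bases before to 50 bases after the RefSeq start of the gene (GRCm38.p6), 5′ to 3′ on the strand of the gene. It was searched on both strands for GGAA and GAAA with any 2 bases between them, the composite element at which PU.1 or a relative binds with IRF4 or IRF8, and for CTGATTGG, the inverted CCAAT or Y box known from class II promoters. Capitals mark the matches, which did not overlap one another, and the composite element appears in its reverse complement.
Cd209a, chr8:3748935-3749234, minus strand: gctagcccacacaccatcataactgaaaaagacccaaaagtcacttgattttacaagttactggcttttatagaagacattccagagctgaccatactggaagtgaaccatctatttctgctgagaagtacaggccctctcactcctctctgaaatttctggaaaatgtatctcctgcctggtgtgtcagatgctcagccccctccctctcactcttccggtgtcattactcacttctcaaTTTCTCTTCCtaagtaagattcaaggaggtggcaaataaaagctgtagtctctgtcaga
Cd209d, chr8:3878450-3878749, minus strand: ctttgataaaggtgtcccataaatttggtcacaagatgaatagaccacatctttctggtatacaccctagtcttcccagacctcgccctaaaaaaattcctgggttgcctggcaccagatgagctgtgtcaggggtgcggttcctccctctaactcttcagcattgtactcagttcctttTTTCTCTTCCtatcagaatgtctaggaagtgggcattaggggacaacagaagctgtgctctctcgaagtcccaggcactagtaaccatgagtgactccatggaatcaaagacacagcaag
H2-Aa, chr17:34287774-34288073, minus strand: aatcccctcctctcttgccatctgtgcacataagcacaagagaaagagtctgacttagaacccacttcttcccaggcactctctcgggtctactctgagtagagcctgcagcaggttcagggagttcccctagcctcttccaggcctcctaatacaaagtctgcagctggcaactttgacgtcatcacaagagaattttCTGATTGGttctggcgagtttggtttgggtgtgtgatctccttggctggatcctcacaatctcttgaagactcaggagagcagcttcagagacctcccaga
H2-Eb1, chr17:34305617-34305916, plus strand: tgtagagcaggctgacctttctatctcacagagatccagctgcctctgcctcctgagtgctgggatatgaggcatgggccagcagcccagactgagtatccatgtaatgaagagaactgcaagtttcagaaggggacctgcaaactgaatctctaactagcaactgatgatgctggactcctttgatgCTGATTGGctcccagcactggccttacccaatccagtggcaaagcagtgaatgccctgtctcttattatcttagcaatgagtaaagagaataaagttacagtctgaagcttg

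The Cd209a and Cd209d windows held the same 10 letters, TTTCTCTTCC, which began 9 bases before the start of Cd209a and 70 bases before that of Cd209d. Of 32851 RefSeq promoter windows of the same 300 bases, 892 held the composite element (2.715%) and 1346 held the Y box (4.097%). The Y box began 51 bases before the start of H2-Aa and 62 bases before that of H2-Eb1. It was found for 3 of the 10 genes with a usable window among the 15 class II genes looked up, the third being H2-Oa. The Cd209b and Cd209c windows held neither motif. A match describes letters in a window and not a bound site.

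Cd209a had 1311 UMIs in the Cd209a-positive cells, 71.8% (69.6 to 73.8%) of the 1827 UMIs of the gene in all passing barcodes. Each cell held 2 to 58 of them, with a median of 8. These values follow from the rule. The other genes of the locus were not used to choose the cells. Cd209c had 25 of its 35 UMIs there (71.4%, exact interval 53.7 to 85.4%), spread over 18 cells, and Cd209b had 12 of 19 (63.2%, 38.4 to 83.7%) in 3 cells. Cd209d had 82 of 442 (18.6%, 15.04 to 22.5%), in 21 of the 116 cells and 76 of the other barcodes. At least 1 of Cd209b, Cd209c and Cd209d was found in 33 cells, which had a median of 14 Cd209a UMIs, against 7 in the 83 cells without any; their median depths were 12799 and 11946 UMIs. None of the 1433 windows of 50 bases in the Cd209a transcript occurs in Cd209b, Cd209c, Cd209d or Cd209e, with which it shares identical stretches of at most 21 bases.

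Against all other passing barcodes, the Cd209a-positive cells were rich in class II and co-stimulatory genes, in the lectins Clec10a and Cd209d, and in a group of less familiar genes including Ctnnd2, Kmo, Napsa and Klrd1. They held less of the neutrophil attractants Cxcl1, Cxcl2 and Cxcl3 and of the cytokines Tnf, Il1a and Il23a, while Il1b was 0.90 higher on the log2 scale. A gene was counted as measured when the cells held at least 50 of its UMIs or the other population predicted that many, and as higher or lower when the pooled levels differed at least 2-fold. Of 4253 measured genes, 350 were higher (8.23%) and 505 lower (11.9%), with a median log2 ratio of 0.08. The other passing barcodes include epithelial, plasma and T cells, and the gene lists below are read beside these shares.

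**Figure D1:**
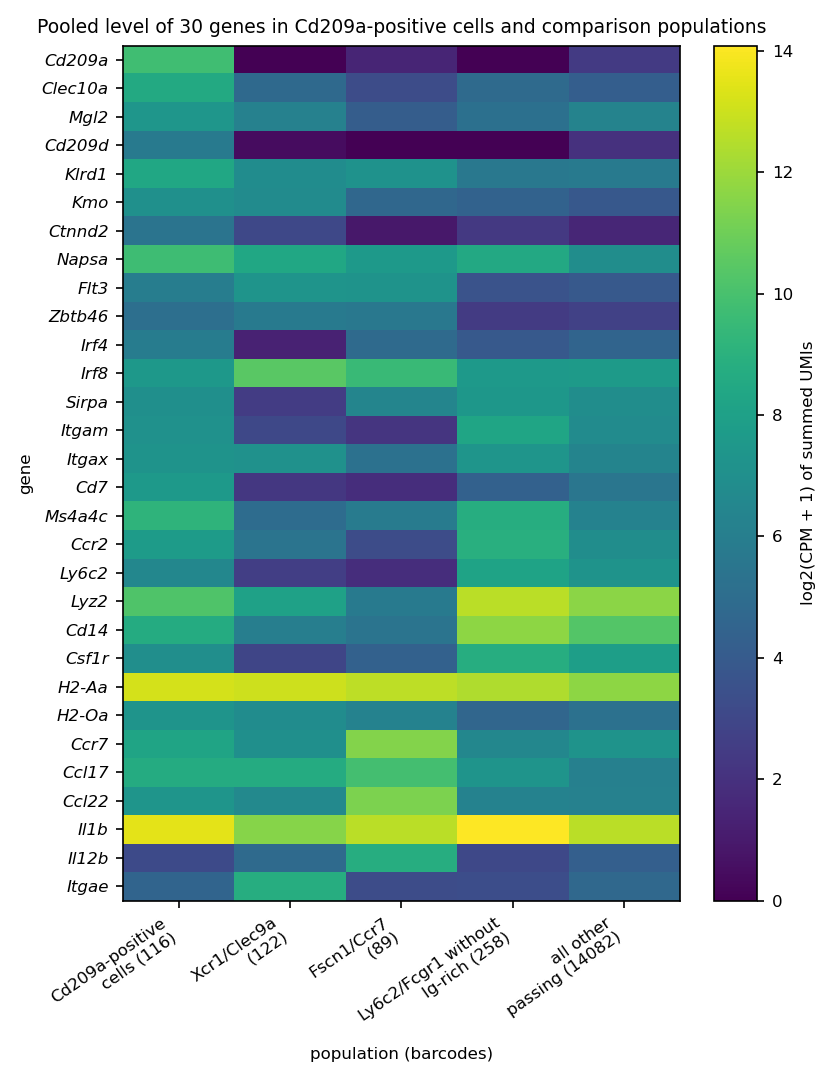
Pooled levels of 30 genes (rows), as log2 of CPM + 1, in the Cd209a-positive cells (left column), the Xcr1/Clec9a, Fscn1/Ccr7 and Ly6c2/Fcgr1 barcodes (the last without immunoglobulin-rich barcodes) and all other passing barcodes. Clec10a stood at 370.7 CPM in the Cd209a-positive cells and 17.5 CPM in the other passing barcodes.

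Clec10a, a galactose-type lectin, had 296.7 CPM in the 30 Cd209a-positive cells of suffix 3 and 404.4 CPM in the 86 of suffix 4. Pooled, it stood at 370.7 CPM (340.7 to 402.6) in the Cd209a-positive cells and 17.5 CPM in the other passing barcodes, a log2 ratio of 4.40 (4.27 to 4.54). It was found in 81 of the 116 cells (69.8%), with a median of 201.1 CPM per cell and a highest of 2651 CPM. In T cells, which should lack it, the share was 0.0512% at a median depth of 5407 UMIs. These T cells are the 1953 passing barcodes with at least 2 UMIs of Cd3e and at most 1 of H2-Ab1. After each barcode was thinned to 1000 UMIs, which left out 8 T cells and no Cd209a-positive cell, the shares were 24.1% and 0.0514%. Clec10a lies on chromosome 11 at 70156197 to 70170834, beside Mgl2 at 70130329 to 70137550 (GRCm38, plus strand), and their 3′ ends are alike: 92 of the 451 windows of 50 bases in the last 500 bases of Clec10a also occur in Mgl2, so how reads were split between them is uncertain. Mgl2 itself had 168.5 CPM in 28 cells, against 77.5 CPM in the other barcodes (log2 ratio 1.12).

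Ctnnd2, which encodes the adhesion protein δ-catenin, ranked first, with 41.5 CPM in the Cd209a-positive cells and 1.87 CPM in the other barcodes (log2 ratio 4.47, 4.04 to 4.88); it was found in 34 cells. Kmo, kynurenine monooxygenase of the tryptophan breakdown pathway, had 135.6 against 13.6 CPM (3.32, 3.10 to 3.53) and was found in 77 cells. Napsa, an aspartic protease, had 824.3 against 118.5 CPM (2.80, 2.71 to 2.88) and was found in 113 cells. These genes thus ranged from a minority of the cells to nearly all, while T cells carried Ctnnd2 in 0.0512%, Kmo in 0.666% and Napsa in 2.97% of barcodes. Of the deeper barcodes with Xcr1 or Clec9a described below, 77.9% carried Kmo, 95.9% Napsa and 10.7% Ctnnd2. In the cells of suffix 3 and of suffix 4 they stood at 48.4 and 38.3 CPM for Ctnnd2, 96.8 and 153.3 CPM for Kmo, and 953.1 and 765.6 CPM for Napsa.

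S100a4, a calcium-binding protein of motile cells, was found in 115 cells at 1940 CPM, against 293.6 CPM in the other barcodes (2.72). Klrd1, the CD94 chain that pairs with NKG2 receptors on natural killer cells, had 339.7 against 53.8 CPM (2.66) and was found in 86 cells (74.1%), at 471.3 CPM in suffix 3 and 279.8 CPM in suffix 4. T cells also carry Klrd1, in 30.5% of their barcodes, and S100a4, in 43.4%. In the comparison populations described below, S100a4 was found in 27.9% of Xcr1/Clec9a, 89.9% of Fscn1/Ccr7 and 91.9% of the 258 Ly6c2/Fcgr1 barcodes. The shares for Klrd1 were 51.6%, 51.7% and 10.1%. The other killer cell genes were nearly silent: the 8-gene natural killer list made up 0.000593% of the UMIs of the Cd209a-positive cells and 0.0209% of those of the other barcodes, with Ncr1, Klrb1c, Eomes and Prf1 at 0. Ms4a4c, a membrane protein of the MS4A family, had 564.2 against 73.7 CPM (2.94) and is also on the monocyte list used below. Olfm1, an olfactomedin, had 181.7 against 24.3 CPM (2.90).

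The rest of the 20 highest ratios ran from 2.56 to 4.17. They included Fcor, a corepressor of FOXO1 (42.1 against 2.82 CPM, 3.90), Selp, the adhesion molecule P-selectin (45.4 against 3.82 CPM, 3.57), the C-type lectin Clec4b1 (32.9 against 3.21 CPM, 3.36), Lrrc32, which docks latent TGF-β (40.8 against 5.37 CPM, 2.93), and Zfp366, the dendritic cell factor DC-SCRIPT (53.3 against 7.02 CPM, 2.92). Nectin1, Krt80 and Tppp3 had ratios of 2.93, 2.87 and 2.60. Cd209d had 53.99 against 2.999 CPM (4.17). Ppp1r14a, an inhibitor of myosin phosphatase, leaned on suffix 3, with 94.7 CPM there and 20.1 CPM in suffix 4, and its ratio of 3.35 became 2.40 when suffix 3 was left out of both populations. Of these genes, Clec4b1 was found in 14.7% of the Cd209a-positive cells, Ppp1r14a in 17.2%, Selp and Lrrc32 in 21.55% each. The shares were 37.1% for Fcor, 38.8% for Zfp366, 32.8% for Nectin1, 33.6% for Krt80 and 35.3% for Tppp3. The lowest ratios belonged to genes of other lineages. The simple-epithelium keratin Krt8 had 1 UMI in the 116 cells against 353.9 CPM in the other barcodes (-9.07, -14.37 to -6.59), Cldn7, Cldn3, Reg4, Cd3g and Nkg7 had 1 UMI each, Gpx2 had 2 and Spink4 had 5.

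**Figure D2:**
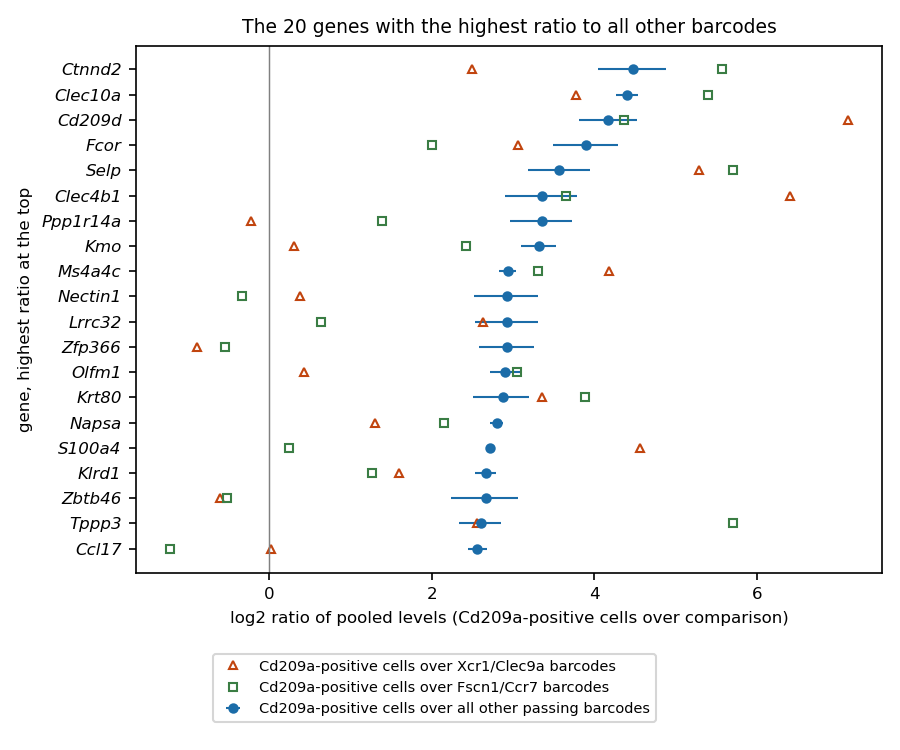
Log2 ratio of the pooled level in the Cd209a-positive cells to that in all other passing barcodes for the 20 highest genes (rows, with 95% counting intervals), and to that in the Xcr1/Clec9a and Fscn1/Ccr7 barcodes for the same genes; a population with 0 UMIs is set to 3 counts. Ctnnd2 and Clec10a lead at 4.47 and 4.40, while Kmo falls to 0.31 against the Xcr1/Clec9a barcodes.

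The label was checked against dendritic, monocyte and other markers and against 3 comparison populations taken from the same passing barcodes: 122 with at least 2 UMIs of Xcr1 plus Clec9a, 89 with at least 2 UMIs of Fscn1 and 1 of Ccr7, and 288 with at least 2 UMIs of Ly6c2 plus Fcgr1, all with at least 10 UMIs of H2-Ab1. All 3 were also held to 0 UMIs of Siglech and Cd3e and under 0.05% C1q. The Xcr1/Clec9a and Ly6c2/Fcgr1 barcodes had no Cd209a and at most 1 UMI of Fscn1, and the Ly6c2/Fcgr1 barcodes no Xcr1 or Clec9a, so differences in these genes follow from the choice. The last population held 30 barcodes with over 1% of UMIs from immunoglobulin genes, which carried 1498 of its 2486 Ly6c2 UMIs. Values for Ly6c2/Fcgr1 barcodes below leave these out, a choice made after seeing the data, which keeps 258 barcodes. The median depths were 21285.5, 11176 and 12337.5 UMIs.

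Flt3, the receptor for FLT3 ligand and a marker given for these cells but not used in the rule, had 103.1 CPM in the Cd209a-positive cells of suffix 3 and 43.1 CPM in those of suffix 4. Its pooled level was 61.9 CPM, against 158.4 CPM in the Xcr1/Clec9a, 147.9 CPM in the Fscn1/Ccr7, 11.2 CPM in the Ly6c2/Fcgr1 and 14.1 CPM in all other passing barcodes. It was found in 45 cells (38.8%), and in 7.76% after each was thinned to 1000 UMIs, against 0.614% of unthinned T cell barcodes. Zbtb46, a transcription factor of conventional dendritic cells, had 34.9 CPM against 52.8, 49.9, 4.40 and 5.53 CPM in the same populations. Both genes were thus higher than in the Ly6c2/Fcgr1 barcodes (log2 ratios 2.47 and 2.99). Flt3 was lower than in the Xcr1/Clec9a and Fscn1/Ccr7 barcodes by ratios of -1.36 and -1.26, which became -0.64 and -0.71 without suffix 4.

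The type 2 factor Irf4 stood at 59.9 CPM in the Cd209a-positive cells, against 1.55 CPM in the Xcr1/Clec9a barcodes (5.27), 28.0 CPM in the Fscn1/Ccr7 barcodes (1.10), 14.1 CPM in the Ly6c2/Fcgr1 barcodes (2.09) and 21.9 CPM in all others. The ratio to the Fscn1/Ccr7 barcodes turned to -1.12 when both were thinned to 1000 UMIs per barcode. That value rests on few UMIs, since thinning left Irf4 in 3 of the 116 cells and 5 of the 89 Fscn1/Ccr7 barcodes. Irf8, the type 1 factor, ran the other way, with 181.7 against 1447 CPM in the Xcr1/Clec9a barcodes (-2.99). The surface genes Sirpa and Itgam, for SIRPα and CD11b, had 129.0 and 136.9 CPM against 4.66 and 7.38 CPM in the Xcr1/Clec9a barcodes, but lay near the level of all other passing barcodes (117.8 and 112.1 CPM). The last value includes macrophages and neutrophils, which carry both genes.

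Of 15 type 2 surface genes, 10 were measured against all other barcodes. Clec10a, Mgl2, Cd300a and Cd7 were higher, Epcam was lower, and the median log2 ratio was 0.57, against 0.08 over all measured genes. Cd300a, an inhibitory receptor, had 277.2 against 86.2 CPM (1.69), and Cd7, an immunoglobulin-type receptor also found on T cells, 196.2 against 45.5 CPM (2.11). Cd7 was found in 57.8% of the Cd209a-positive cells and 22.8% of T cell barcodes, and after thinning in 14.7% and 10.1%. Esam, a marker of the Notch2-dependent subset, had 0 UMIs, and Clec4a4 had 3 UMIs in 1 cell. Cdh1, for E-cadherin, on the epithelial marker list, was found in 46 cells at 74.4 against 36.1 CPM (1.04), a ratio that turned to -0.29 without suffix 4, while the epithelial genes Krt18, Krt19, Krt20 and Lgals4 were at 0.

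Of 18 dendritic cell transcription factors, 15 were measured against all other barcodes; 7 were higher and none lower, with a median of 0.78. Runx3 had 477.3 against 155.5 CPM (1.62), Spi1, which encodes PU.1, 558.3 against 239.6 CPM (1.22), Irf5 257.4 against 78.2 CPM (1.72), and the nuclear receptor Nr4a3 194.2 against 82.7 CPM (1.23). Batf3, needed for type 1 cells, was also higher than in all others (65.8 against 28.3 CPM, 1.22) but below the 216.2 CPM of the Xcr1/Clec9a barcodes (-1.72). Tbx21, which marks a type 2 subset in mouse, had 22 UMIs in 16 cells (13.8%), against 7.83% of T cell barcodes, in which it is a known factor; after thinning it was in 0 of the 116 cells and 1.70% of T cell barcodes. Among 16 measured growth factor and cytokine receptors, 3 were higher and 3 lower (median 0.58). Flt3, Kit (57.9 against 18.6 CPM, 1.64) and the GM-CSF receptor chain Csf2rb (393.7 against 177.1 CPM, 1.15) were higher. The neutrophil receptor Csf3r (12.5 against 87.2 CPM, -2.80) and the TGF-β receptors Tgfbr1 and Tgfbr2 (-2.02 and -2.05) were lower.

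Monocyte genes were present in these cells, most of them below their level in the Ly6c2/Fcgr1 barcodes. The 8 genes of the monocyte list other than Ly6c2 and Fcgr1 made up 0.381% of the UMIs of the Cd209a-positive cells (0.0132 to 1.776% per cell), 1.405% in the Ly6c2/Fcgr1 barcodes and 0.549% in all other passing barcodes; the part of this list in the results above was not tested. Lyz2, lysozyme, had 1181 CPM against 6246 CPM in the Ly6c2/Fcgr1 barcodes (-2.40) and 3245 CPM in all others (-1.46, or -0.61 without suffix 4). Cd14 had 404.9 against 3274 CPM, Ccr2 208.7 against 478.6 CPM and Plac8 1393 against 3099 CPM in the Ly6c2/Fcgr1 barcodes. Of the 8 list genes measured against these barcodes, 7 were lower, and Ms4a4c lay within 2-fold. Against all other passing barcodes 9 genes of the list were measured. Plac8 and Ms4a4c were higher there, and Chil3, Lyz2 and Cd14 were lower. Fcgr1, the high-affinity Fc receptor, was found in 41.4% of the Cd209a-positive cells and 0.717% of T cell barcodes, and after thinning in 3.45% and 0.154%. Ly6c2 was found in 25.9% of the Cd209a-positive cells and 14.4% of T cell barcodes, some of which are known to carry Ly6C, and after thinning in 6.03% and 6.38%. Vcan had 3 UMIs and Chil3 25 UMIs, each in 1 cell.

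The 8 macrophage markers other than the C1q genes, which the rule limits, made up 0.0496% of UMIs (0 to 0.421% per cell), against 0.327% in the Ly6c2/Fcgr1 barcodes and 0.703% in all others. Apoe, an apolipoprotein of macrophages, had 129.7 against 5958 CPM in all others (-5.52), and Mertk had 1 UMI. T cell markers other than Cd3e, which the rule holds at 0, made up 0.00125% of UMIs, epithelial markers 0.0100%, B cell markers 0.0056% and mast cell markers 0.00876%. Plasmacytoid dendritic markers other than Siglech, at 0 by the rule, made up 0.0397%, with Cox6a2 and Klk1 also at 0. That share was 0.0221% in the Xcr1/Clec9a, 0.0339% in the Fscn1/Ccr7 and 0.0674% in all other passing barcodes. Plasma cell markers made up 0.1085%, against 7.93% in all others. Neutrophil markers made up 0.180% (0 to 9.59% per cell), against 1.53%. The 6 genes of the migratory dendritic list other than Fscn1 and Ccr7 made up 0.0310% against 0.578% in the Fscn1/Ccr7 barcodes, with 0 of the Cd209a-positive cells over 0.5%.

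Class II genes were high, as the choice by H2-Ab1 makes likely, so these values are a description. Of 14 listed genes of class II presentation other than H2-Ab1, 12 were found by name in the matrix. All 12 were measured against all other barcodes, with 8 higher, 1 lower and a median of 1.33. H2-Aa, the α chain that pairs with H2-Ab1 and lies beside it on chromosome 17, had 9432 CPM in the Cd209a-positive cells and 3323 CPM in the other barcodes (1.51). H2-Eb1 had 6994 against 2754 CPM (1.34), the invariant chain Cd74 25050 against 10080 CPM (1.31), the peptide-exchange gene H2-DMb1 931.6 against 302.8 CPM, and the transactivator Ciita 209.4 against 60.4 CPM (1.79). H2-Oa, a subunit of the H2-O modulator, had 153.4 against 36.8 CPM (2.06), and 23.8 CPM in the Ly6c2/Fcgr1 barcodes (2.69), which had also been chosen by H2-Ab1. The protease Lgmn was lower, with 149.4 against 341.6 CPM (-1.19, or -0.94 without suffix 3). Among 12 class I genes, only Wdfy4, which is needed for cross-presentation, passed 2-fold (107.3 against 39.0 CPM, 1.46), and it stood at 506.9 CPM in the Xcr1/Clec9a barcodes.

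Of 16 co-stimulatory and checkpoint genes, 10 were measured against all other barcodes; 7 were higher and 1 lower, with a median of 1.47. Cd86 had 367.4 against 109.0 CPM (1.75), Cd80 192.2 against 58.0 CPM (1.73), and Cd40, the receptor for CD40 ligand, 96.1 against 35.8 CPM (1.43, or 0.60 without suffix 4). Tnfsf9, the 4-1BB ligand, had 247.5 against 74.1 CPM (1.74), Icosl 65.8 against 24.4 CPM (1.43), Pvr, a ligand of TIGIT and CD226, 77.0 against 23.7 CPM (1.70), and Havcr2, which encodes TIM-3, 196.2 against 69.5 CPM (1.50). Cd274, for PD-L1, had 298.2 against 216.4 CPM (0.46), and the checkpoint Vsir was lower, with 42.8 against 91.1 CPM (-1.09, or -0.13 without suffix 4). Against the Fscn1/Ccr7 barcodes the list split, with 3 genes higher (Havcr2, Lgals9 and Vsir) and 4 lower (Cd40, Cd274, Pdcd1lg2 and Nectin2) of 12 measured.

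Il1b, which encodes the inflammasome-processed cytokine IL-1β, had 7686 CPM in the Cd209a-positive cells of suffix 3 and 13760 CPM in those of suffix 4. Pooled, it stood at 11860 CPM, against 2996 CPM in the Xcr1/Clec9a barcodes (1.98), 6357 CPM in the Fscn1/Ccr7 barcodes (0.90), 17390 CPM in the Ly6c2/Fcgr1 barcodes (-0.55) and 6370 CPM in all other passing barcodes (0.90). It was found in 112 cells (96.6%), and in 87.9% after thinning, against 34.2% and 8.74% of T cell barcodes. Of 8 listed cytokines measured against all others, none was higher and 4 were lower, with a median of -1.02. Tnf had 32.3 against 268.5 CPM (-3.06), Il23a 8.56 against 61.5 CPM (-2.84), Il1a 84.3 against 447.5 CPM (-2.41), and the IL-1 receptor antagonist Il1rn 224.5 against 642.0 CPM (-1.52). Il12b had 12 UMIs in 3 cells, Il10 had 1 UMI and Il12a had 0. Against the Xcr1/Clec9a barcodes the cytokine list ran the other way, with 5 higher, Il1a and Il1rn among them, and 0 lower of 6 measured (median 2.61). Against the Fscn1/Ccr7 barcodes 3 were higher and 2 lower of 9 (median -0.44).

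Chemokines were mostly lower than in all other passing barcodes. Of 17 measured against all other barcodes, 3 were higher and 9 lower, with a median of -1.18. The CCR4 ligands Ccl17 and Ccl22 were higher, at 405.5 against 68.8 CPM (2.56) and 163.3 against 72.1 CPM (1.18). Ccl17 came almost wholly from suffix 4, where 36 of 86 Cd209a-positive cells held it at 572.0 CPM, against 4 of 30 cells and 40.0 CPM in suffix 3; without suffix 4 the log2 ratios of Ccl17 and Ccl22 became -0.19 and 0.87. Cxcl10, a CXCR3 ligand, had 879.6 against 366.4 CPM (1.26, or 0.59 without suffix 4). The neutrophil attractants Cxcl2 (379.2 against 7279 CPM, -4.26), Cxcl3 (117.8 against 915.9 CPM, -2.96) and Cxcl1 (7.90 against 166.6 CPM) were lower. So were the inflammatory chemokines Ccl3 (69.1 against 815.3 CPM, -3.56), Ccl4 (639.9 against 1446 CPM, -1.18, or -0.67 without suffix 4) and Ccl5 (104.0 against 431.9 CPM). Ccl24 and Ccl7 had 0 UMIs and Ccl8 had 2. Against the Xcr1/Clec9a barcodes the chemokine list ran the other way, with 7 higher and 1 lower of 13 measured (median 1.05). Ccl3, Ccl5 and Cxcl3 were among those higher there, and Cxcl9 was lower. Against the Fscn1/Ccr7 barcodes 5 were higher and 5 lower of 14 (median -0.36).

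Receptors for chemokines and homing were measured for 10 of 14 genes; 4 were higher and 2 lower, with a median of 0.66. Among those higher, Gpr183, which senses oxysterols and positions dendritic cells, had 547.8 against 149.1 CPM (1.88), the gut-homing integrin chain Itgb7 247.5 against 76.6 CPM (1.69) and the lymph node receptor Ccr7 300.9 against 147.8 CPM (1.03). Ccr7 was found in 43 cells (37.1%) and in 35.1% of T cell barcodes, whose naive and central memory cells use it to home, and its highest level in a Cd209a-positive cell was 6741 CPM. The fractalkine receptor Cx3cr1, common on gut macrophages, was lower, with 34.9 against 119.3 CPM (-1.77), and S1pr1 had 2 UMIs.

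Pattern receptors sense microbes and debris, and Fc receptors bind antibody. Of 10 pattern receptors measured, Clec4b1 and Cd209d were higher and 5 were lower, with a median of -0.80. The fungal and debris sensors Clec4e (54.0 against 504.5 CPM, -3.22), Clec4d (-2.99) and Clec4n (135.6 against 289.1 CPM, -1.09, or -0.82 without suffix 3) were among them, with Clec5a (-1.70) and the mannose receptor Mrc1 (44.8 against 101.4 CPM, -1.18, or -0.53 without suffix 4). Of 6 Fc receptor genes measured, the neonatal receptor Fcgrt was higher (117.8 against 39.7 CPM, 1.57), and the activating receptors Fcgr3 (57.9 against 248.9 CPM, -2.10) and Fcgr4 (-1.99) were lower.

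Among 7 measured genes of regulation and tolerance, 2 were higher and 3 lower, with a median of -0.79. The vitamin D receptor Vdr had 78.3 against 13.98 CPM (2.49) and the aryl hydrocarbon receptor Ahr 222.5 against 72.0 CPM (1.63). The arginases Arg1 (3.95 against 137.4 CPM, -5.12) and Arg2 (-3.08) and the haem oxygenase Hmox1 (5.93 against 160.4 CPM, -4.76) were lower. The retinoic acid enzyme Aldh1a2, known from CD103-positive gut dendritic cells, had 3 UMIs in 3 cells, and Aldh1a1, Aldh1a3, Itgb8, Ido1 and Ido2 had 0. A count of 0 in 1518928 UMIs of Ido1 allows up to 1.98 CPM, the level of 3 counts.

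**Figure D3:**
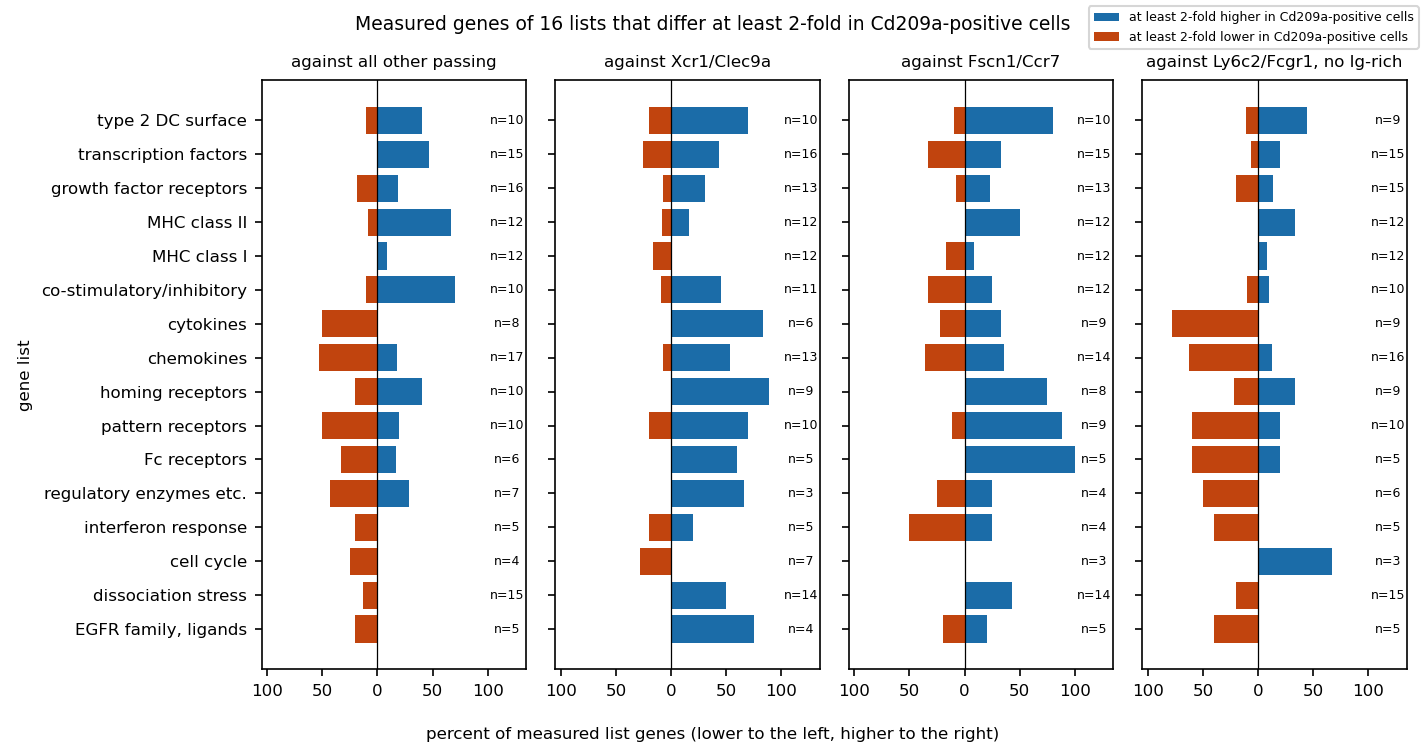
Percent of measured genes of each of 16 lists that were at least 2-fold higher or lower in the Cd209a-positive cells than in the Xcr1/Clec9a, Fscn1/Ccr7 and Ly6c2/Fcgr1 barcodes and all other passing barcodes; the number measured is printed at each bar. Against all others, 8 of 12 class II genes and 7 of 10 co-stimulatory genes were higher, while 4 of 8 cytokines and 9 of 17 chemokines were lower.

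Against the Xcr1/Clec9a barcodes, 493 of 4142 measured genes were higher (11.9%) and 364 lower (8.79%), with a median of -0.07. Type 2 surface genes were higher for 7 of 10, with a median of 2.53, and pattern receptors for 7 of 10, with a median of 3.46; Itgae, which encodes CD103, was lower (22.4 against 445.2 CPM, -4.31). The highest ratios were those of Pgf, a placental growth factor with 120 UMIs (79.0 CPM) against 1 UMI (7.67, 5.16 to 12.98), and Cd209d (7.12). Next came the protease inhibitor Timp1, with 141.5 CPM against 0 UMIs (6.93 with 0 set to 3 counts, interval from 6.61 without an upper limit). Dmkn (6.76), Clec4b1 (6.41), the adenosine receptor Adora2b (107.3 against 1.55 CPM, 6.11), the elastase Mmp12 (116.5 against 1.94 CPM, 5.91) and Tmem176a (276.5 against 5.43 CPM, 5.67) followed. Most of these genes were found in a minority of the Cd209a-positive cells: Pgf in 30.2%, Cd209d in 18.1% and Timp1 in 25.9%. The shares were 15.5% for Dmkn, 14.7% for Clec4b1 and 16.4% for Mmp12, but 53.45% for Adora2b and 75.9% for Tmem176a. The lowest were Dnase1l3 (1 UMI against 153.7 CPM, -7.87), the double-stranded RNA sensor Tlr3 (2 UMIs against 220.1 CPM, -7.38), Gcsam (-7.19), the adhesion gene Cadm1 (1 UMI against 79.2 CPM, -6.91), Cd36 (-6.48), Tlr12 (-6.41), Clec1b (-5.81) and Plcb4 (-5.71). Tlr3 and Cadm1 are known genes of type 1 dendritic cells. Cst3, cystatin C, stood at 5801 against 29220 CPM (-2.33), although it was above the 2267 CPM of all others. Of 12 class II genes, 2 were higher and 1 lower, with a median of 0.18.

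Against the Fscn1/Ccr7 barcodes, 690 of 4128 measured genes were higher (16.7%) and 549 lower (13.3%), with a median of 0.10. Type 2 surface genes were higher for 8 of 10 (median 3.53), pattern receptors for 8 of 9 and Fc receptors for 5 of 5. Cd7 (6.22), Ifitm6 (320.0 against 4.37 CPM, 6.19), Selp (5.70), Tppp3 (5.70), Tm6sf1 (5.68), Ctnnd2 (5.57), Clec10a (5.40) and the coagulation factor gene F13a1 (5.37) had the highest ratios. In this order they were found in 57.8, 80.2, 21.55, 35.3, 65.5, 29.3, 69.8 and 12.1% of the Cd209a-positive cells. The lowest were Apol7c (1 UMI against 256.3 CPM, -8.60), Nudt17 (1 UMI against 133.9 CPM, -7.67), Tcf7 (-6.66), Slc4a8 (-6.43), Snn (-6.41), Slco5a1 (-6.22), Clu, at 0 UMIs in the Cd209a-positive cells, and Plat (-5.96). Of this last group Slco5a1 depended most on 1 suffix, with a ratio of -1.76 without suffix 3. The maturation genes Ccl22 (163.3 against 2569 CPM, -3.98), Fabp5 (1053 against 8932 CPM, -3.08) and Relb (107.3 against 554.7 CPM, -2.37) were lower. Transcription factors split evenly, with 5 higher and 5 lower of 15.

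Against the 288 Ly6c2/Fcgr1 barcodes with the immunoglobulin-rich ones included, 336 of 3840 measured genes were higher (8.75%) and 281 lower (7.32%), with a median of 0.34. Without them the split turned round, with 184 of 3939 higher (4.67%) and 352 lower (8.94%), and a median of 0.10. In the population of 258, the highest ratio was that of Cd209d, at 0 UMIs there (5.94 with 0 set to 3 counts, interval from 5.61 without an upper limit). Next came Ube2c (3.81), Clec10a (3.69), Cd200 (3.38), Prnp (75.1 against 7.34 CPM, 3.35), Ctnnd2 (3.33), Cd7 (3.30) and Selp (3.27). In this order they were found in 5.17, 69.8, 12.1, 28.45, 29.3, 57.8 and 21.55% of the Cd209a-positive cells, and Cd209d in 18.1%. The lowest were the eosinophil attractant Ccl24 (0 UMIs against 839.7 CPM), Arg1 (3.95 against 456.9 CPM, -6.85), Ngp (-6.03), F10 (-5.91), Csf3 (-5.78), Camp (0 UMIs), Hes1 (-5.66) and Saa3 (-5.62). Ngp and Camp are neutrophil granule genes, and 23 of the 258 barcodes had over 0.5% of their UMIs from neutrophil markers, against 3 of the 116 Cd209a-positive cells; their part in these ratios was not tested. Ngp was found in 3.10% of the 258 barcodes. Without suffix 3 the ratio of Ngp turned to 2.69 and that of Ube2c to -0.89, and without suffix 4 those of Csf3 and Hes1 became -3.24 and -3.20. With the immunoglobulin-rich barcodes included, the lowest ratios were headed by Ccl24, Jchain (-7.65) and Mzb1 (-6.89), the last pair being plasma cell genes, and also held Pou2af1 (-6.43), Arg1 (-6.41), Ly6d (-5.69), Ccr10 (at 0 UMIs) and Ngp (-5.58).

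The immune lists separated the Cd209a-positive cells from the Ly6c2/Fcgr1 barcodes on the inflammatory side. Of 9 cytokines measured, 7 were lower (Il1a, Il1rn, Il6, Il23a, Tnf, Osm and Lif; median -2.78), and of 16 chemokines, 10 were lower and 2 higher (median -1.70). Class II genes were higher for 4 of 12 (H2-DMb2, H2-Oa, H2-Ob and Ciita; median 0.78). Of 9 type 2 surface genes, 4 were higher and Itgam was lower (136.9 against 307.7 CPM, -1.17), with a median of -0.12. Flt3 and Kit were higher, and the receptors Csf1r (121.8 against 440.4 CPM, -1.85), Csf3r and Tgfbr1 were lower. Of 15 dendritic cell transcription factors measured, Zbtb46, Irf4 and Batf3 were higher and only Zeb2 was lower (204.7 against 515.9 CPM, -1.33).

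Of 5 interferon-stimulated genes measured against all other barcodes, Rsad2 was lower and none was higher; Isg15 had 268.6 against 228.7 CPM (0.23), at 75.7 CPM in the Cd209a-positive cells of suffix 3 and 356.4 CPM in those of suffix 4. Of 15 stress genes, which mark handling of the tissue, none was higher and 2 were lower, Egr1 (28.3 against 140.7 CPM, -2.31) and Ier3 (384.5 against 779.6 CPM, -1.02, or -0.87 without suffix 3), with a median of 0.03. Egfr, the gene deleted in the myeloid lineage of the EgfrΔMYL mice, had 1 UMI in 1 of the 116 cells (0.862%), so these data hold no usable Egfr level in them. Of the ligands of the EGF family, Areg was lower (42.1 against 142.0 CPM, -1.75), Hbegf had 48.1 against 27.2 CPM (0.82), and Ereg, Tgfa and Btc had 0 UMIs.

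Among the Cd209a-positive cells, neutrophil, chemokine and Il1b messages were among those furthest from scatter by counting alone. The spread of a gene was measured as Pearson's chi-square over its degrees of freedom, which is 1 when UMIs scatter by counting alone. At equal relative spread this measure grows with a gene's mean, which was 155.3 UMIs per cell for Il1b and 274.8 for Actb. Its ranking is therefore not a ranking of relative variation. S100a9 (398.0), S100a8 (262.6), Ccl4 (166.3), Retnlg (143.6), Cxcl10 (113.0), Il1b (104.9), Fabp5 (103.0), Cxcl9 (95.5), Cxcl2 (92.8) and Cst3 (89.5) led, followed by Actb, Lyz2, Fth1, Ifitm1 and AY036118 at 61.7 to 87.7, against a median of 1.291 over 4489 genes. For most of the first group a handful of cells held the message: the 6 highest cells held 95.2% of the S100a9 UMIs, 99.6% of Retnlg, 95.5% of Cxcl9, 83.5% of Cxcl2, 70.9% of Ccl4 and 63.4% of Cxcl10. Il1b was spread differently, since its 6 highest cells held 15.9%.

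**Figure D4:**
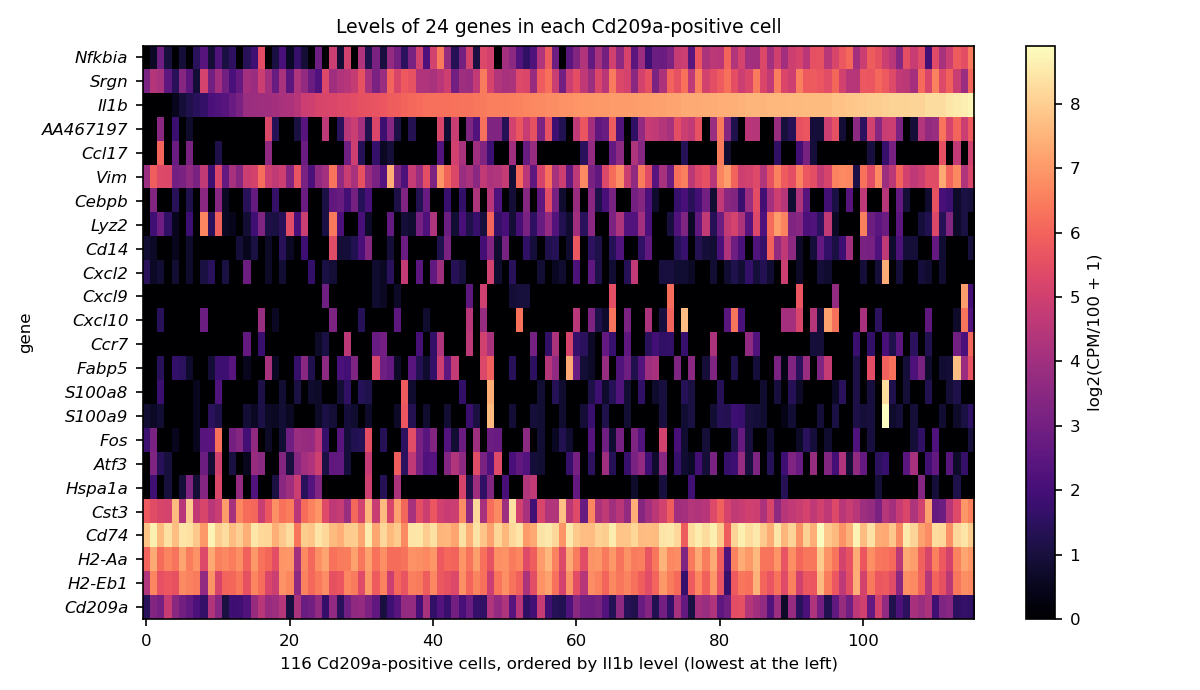
Levels of 24 genes (rows) in each of the 116 Cd209a-positive cells (columns, ordered by Il1b), as log2 of CPM/100 + 1. Il1b runs from 0 to 43030 CPM per cell across the columns.

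The 3 cells with over 0.5% neutrophil markers held most of the S100a8 and S100a9 messages. Without them S100a8 had 41.7 CPM in the remaining 113 cells, against 676.1 CPM in all 116, and S100a9 had 50.5 against 890.8 CPM; Cxcl2 had 162.5 against 379.2 CPM. Il1b (11830 against 11860 CPM) and Lyz2 (1087 against 1181 CPM) moved little. Likewise, 3 cells carried at least 5 of 14 cell cycle genes and held 91.8% of the Stmn1, 88.6% of the Top2a and 72.3% of the Mki67 UMIs, but 16.7% of Tyms, 11.1% of Pcna, 7.14% of Mcm2 and 30.0% of Mcm3. Without them Top2a had 6.19 against 52.0 CPM and Ube2c 2.75 against 49.4 CPM, and the Ube2c ratio above rests on these cells.

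Il1b per cell had quartiles of 4289, 11330 and 18600 CPM; 63 cells were above 10000 CPM and 14 below 1000 CPM. Across the 116 cells, which come from 2 suffixes and differ in depth from 2672 to 30852 UMIs, Il1b went with Nfkbia, the NF-κB inhibitor (Spearman 0.68), and with Srgn, serglycin (0.61), and against Cst3 (-0.34). Within the 30 cells of suffix 3 these values were 0.80, 0.76 and -0.27, and within the 86 of suffix 4 they were 0.64, 0.55 and -0.34. Class II genes went together (H2-Aa with H2-Eb1 0.91, Cd74 with H2-Aa 0.83), and Lyz2 went with the monocyte factor Cebpb (0.55). Cd209a had a value of 0.24 with Clec10a, and of 0.51 and 0.08 within suffixes 3 and 4. At least 1 UMI of Flt3 or Zbtb46 was found in 68 cells (58.6%) and of Ly6c2 or Fcgr1 in 61 (52.6%), with 36 in both sets and 23 in neither. The 32 cells with Flt3 or Zbtb46 only had 743.6 CPM of Lyz2, 227.3 of Cd14 and 96.4 of Cebpb, and the 25 with Ly6c2 or Fcgr1 only had 2875 of Lyz2, 881.8 of Cd14 and 1208 of Cebpb. The 36 with both had 738.2 CPM of Lyz2, and the 23 with neither had 413.8 of Lyz2 and 659.7 of Cebpb. Of the 25 cells, 22 came from suffix 4, and the 6 highest of all 116 cells held 52.0% of the Lyz2 UMIs. Detection of such low genes depends on depth, and these sets are not called cell types.

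The Cd209a-positive cells of suffixes 3 and 4, which no source ties to a genotype or sort, differed at least 2-fold for 302 of 3562 genes measured between them (8.478%). Their levels are set side by side as values of 2 libraries. Against all other barcodes, leaving suffix 4 out of both populations moved the log2 ratio by more than 1.5 times in fold for Ctnnd2 (5.16), Clec10a (5.08), Klrd1 (3.41), S100a4 (3.41), Flt3 (3.03), Selp (2.63), Cd300a (2.69), H2-Aa (2.13), Areg (-4.67), Cxcl3 (-1.36), Egr1 (-1.13) and Il1a (-3.65), all of which stayed past 2-fold. Higher in suffix 4 were AY036118, a transcript that overlaps ribosomal DNA (252.5 CPM in suffix 3 and 2429 CPM in suffix 4), Cxcl10 (286.1 and 1150), Cxcl9 (46.3 and 379.4), Thbs1 (14.7 and 200.3), Areg (4.21 and 59.4) and Cd274 (126.2 and 376.6). Higher in suffix 3 were Id2 (359.8 and 80.5), Fos (683.8 and 255.8), Stmn1 (218.8 and 5.75) and Top2a (145.2 and 9.58). Of the 3 cells with at least 5 cell cycle genes, 2 were in suffix 3 and 1 in suffix 4, and the median depths were 14286 and 11610.5 UMIs.

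**Figure D5:**
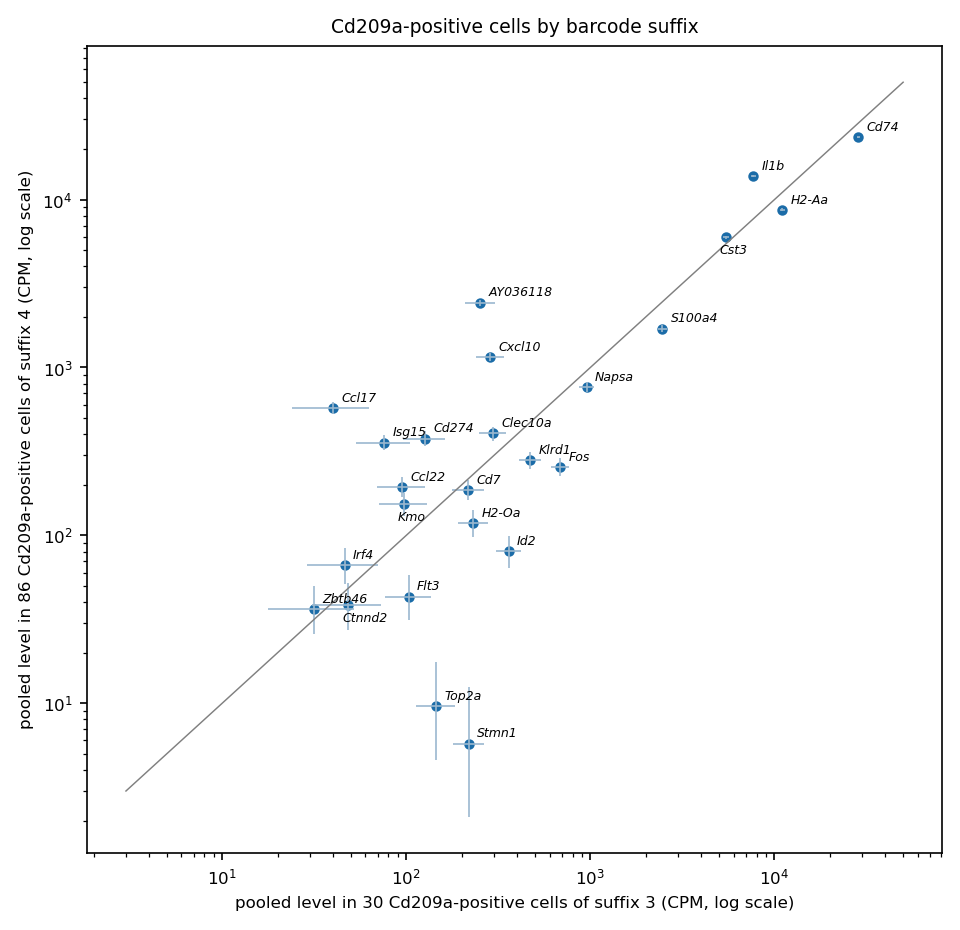
Pooled level (CPM, log axes) of each gene in the 30 Cd209a-positive cells of suffix 3 (x axis) and the 86 of suffix 4 (y axis), with 95% Poisson intervals; the grey line marks equal levels. Cd74, Napsa and Clec10a lie close to the line, Ccl17 and AY036118 far above it and Stmn1 and Top2a far below.

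The limits of the rule were looked at from both sides. Of 242 passing barcodes with any Cd209a UMI, 181 had at least 2, and 153 of these also had 10 UMIs of H2-Ab1. Among these 153, Xcr1 or Clec9a kept out 20, Siglech 16, C1q 6 and Cd3e 4, with some barcodes failing more than one limit, and Fscn1 kept out none. The 24 members at the lower bound of 2 Cd209a UMIs are set beside the 26 barcodes that failed by having 1. They had 184.7 against 318.9 CPM of Clec10a, 73.9 against 50.7 CPM of Flt3, 46.2 against 38.7 CPM of Zbtb46, 13110 against 11410 CPM of Il1b, 775.9 against 658.6 CPM of Napsa and 138.6 against 131.1 CPM of Kmo. Gaps were wider for Lyz2, at 1792 against 378.5 CPM, Ly6c2, at 117.0 against 44.7 CPM, and Klrd1, at 468.0 against 211.6 CPM. The 6 members with fewer than 20 H2-Ab1 UMIs had 2123 CPM of H2-Aa, against 9432 CPM over all 116, and 1 barcode was outside by C1q alone at up to 0.1%, with 33 UMIs of Mgl2.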

How the data were processed

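The 4 libraries were made with the Chromium 3′ V3 kit, and the counts were produced by the authors with Cell Ranger 3.0.2 on mm10, per the submitters' processing notes. The deposited values are UMI counts per gene and barcode, 31053 genes by 18026 barcodes, in 1 matrix; further steps by the authors are not given in the sources used here. The counts were used as deposited.

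The Cd209a-positive cells, the comparison populations and the gene lists were chosen with earlier results of these data known. UMIs were summed per population and scaled to CPM, with exact 95% Poisson intervals. Ratios have exact intervals from the split of the counts (Clopper-Pearson), and a population at 0 stands at the level of 3 counts. Such intervals do not cover variation between animals. Named genes were those of the lists, the 20 highest and 8 lowest ratios against all other barcodes, the 8 highest and 8 lowest in each other comparison and the 15 most dispersed, leaving out the genes of the rule, mitochondrial, ribosomal, haemoglobin and antigen receptor genes, and predicted genes. The ratio step was run on simulated counts drawn with counting error alone, so that run does not cover the spread among cells beyond counting. Scrublet in scanpy 1.11.5 marked 50 of 14198 barcodes (0.352%) and none of the 116, a rate at which doublets were in effect not removed; leaving out the 625 highest scores, 5 of them Cd209a-positive cells, served as an alternative. Passing barcodes had medians of 3390.5 to 5177 UMIs per suffix. Python 3.11.15, numpy 2.4.6, scipy 1.17.1 and pandas 2.3.3 were used. Alternatives covered the rule's limits, the minimum of UMIs, the scaling, thinning and leaving out a suffix.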

Additional observations from a re-analysis of the deposited data

How the results depend on the processing

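Ly6c2/Fcgr1 counts here are of the 288 barcodes, immunoglobulin-rich ones included, unless stated. The number of Cd209a-positive cells was 142 with 1 Cd209a UMI allowed, 92 with 3 required, 111 without the highest Scrublet scores and 113 to 117 under the other limits. Counts of genes at least 2-fold apart followed the minimum of UMIs and the depth. With at least 10 UMIs they were 1995 lower than all other passing barcodes, 994 higher and 1127 lower than the Xcr1/Clec9a barcodes, 1564 higher and 1195 lower than the Fscn1/Ccr7 barcodes, and 869 higher and 637 lower than the Ly6c2/Fcgr1 barcodes. With no minimum the same pairs were 6362 and 3128, 1361 and 1703, 1930 and 1536, and 1443 and 1035. Thinned to 1000 UMIs they were 62 and 60, 56 and 23, 59 and 74, and 15 and 59. Without suffix 4 they were 197 lower than all others, 239 and 125, 295 and 292, and 204 and 156. Genes higher than the Ly6c2/Fcgr1 barcodes numbered 211 with 10 CPM added, 220 by the mean of per-barcode CPM, 214 without suffix 3 and 184 without immunoglobulin-rich barcodes.

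Of the named genes with a 2-fold ratio, 1697 of 1768 pairs of a gene and an alternative stayed 2-fold against all other barcodes, 488 of 494 against the Xcr1/Clec9a, 406 of 414 against the Fscn1/Ccr7 and 414 of 422 against the 288 Ly6c2/Fcgr1 barcodes; without the immunoglobulin-rich ones 455 of 461 did. Leaving out suffix 4 moved 53 of 104 named ratios against all other barcodes by over 1.5 times in fold and took 10 of them under 2-fold, and leaving out suffix 3 moved 10 and took 4 under, Cdh1 (0.78) among them. A suffix was left out of both populations, so these moves include changes in the other barcodes. The direction turned for Ccl17 (-0.19) and Cdh1 (-0.29) against all others without suffix 4, Irf4 against the Fscn1/Ccr7 barcodes after thinning (-1.12, with Irf4 left in 3 and 5 barcodes), and, against the Ly6c2/Fcgr1 barcodes, Pou2af1 after thinning (0.09) and Ngp without suffix 3 (3.07). Against the 258 without immunoglobulin-rich barcodes it turned for Ngp (2.69) and Ube2c (-0.89) without suffix 3 and for Ube2c without the deepest Cd209a-positive cells (-0.13); the cause was not tested. No analysis was paired by suffix, although suffixes 3 and 4 each held barcodes of every population compared. No column carries a replicate number, and the comparisons come from no test.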
